A study of Solenopsis invicta with 12 samples.

Results

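The antennal libraries of fire ant workers (Solenopsis invicta) hold 6 genes that the study annotates with chemical or general metabolism and that are described here across all 12 libraries. They are SINVm1_gene_14166 (acyl-delta desaturase-like), SINVm1_gene_01650 (glycerol-3-phosphate acyltransferase 3-like), SINVm1_gene_03610 (alpha,alpha-trehalose-phosphate synthase), SINVm1_gene_04127 (UDP-glucuronosyltransferase 2b30-like), SINVm1_gene_10049 (iduronate 2-sulfatase) and SINVm1_gene_00401 (probable cytochrome P450 4aa1), of 19230 genes in the tables. The study listed them because their levels differed among the worker classes of these same libraries, so their class differences are given as a description and with no p. Calls from the fit over all genes are given only as counts beside the share of all genes called, and support nothing about the 6. The names are those of the study's annotation, and all other values were computed from the deposited tables.

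The study sequenced 3 worker classes, with 4 libraries in each. M_BB workers came from monogyne colonies, which have a single queen, and carried the SB variant of the social supergene on both chromosomes (SB/SB). P_BB workers were SB/SB workers from polygyne colonies, which have several queens, and P_Bb workers were SB/Sb workers from the polygyne colonies, with a copy of each variant. Every library was a pool of worker antennae of a single class and colony, from colonies held in the laboratory before sampling, and the RNA was amplified before sequencing. The bioreplicates are numbered 2, 3, 6 and 7. By the labels the P_BB and P_Bb libraries of a number shared a colony, while M_BB of the same number came from a monogyne colony of its own, so 8 colonies stand behind the 12 libraries. The study's methods pair each monogyne colony with the polygyne colony of its number by shared days of collection and of sampling. The model by worker class leaves this pairing out, as the study's own comparison did, and values within bioreplicates and with the bioreplicate as a block are given beside it. A difference between M_BB and the polygyne classes is thus also a difference between sets of colonies, and the 2 cannot be told apart.

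An insect antenna detects odorants and also transforms them. Enzymes of the fluid and the supporting cells around the sensory neurons break down or conjugate odorants after they bind. Cytochrome P450 enzymes oxidise small lipophilic molecules, UDP-glucuronosyltransferases attach a sugar to them so that they dissolve and can be removed, and desaturases place double bonds in fatty acyl chains, a step in making unsaturated pheromones and cuticular hydrocarbons, by which ants recognise each other. Trehalose is the main blood sugar of insects, and glycerol-3-phosphate acyltransferases catalyse the first step in building glycerolipids from fatty acids.

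Levels are given as TPM, RSEM's estimate of a transcript's abundance scaled for gene length and library size. Beside them stand RSEM's expected counts, its unscaled estimates of the read pairs of a gene. Libraries held 1662249 to 4101327 expected counts in all (median 2995185). The RNA was amplified and carried no molecular identifiers, and bounds from counts therefore take in counting error alone. In bulk tissue, fewer cells of a type and less RNA per cell cannot be told apart. Of the 3 chemosensory markers, the odorant receptor XLOC_016888 was present in every library, at 10.6 to 16.0 TPM in SB/SB and 3.94 to 8.16 TPM in P_Bb. The odorant receptor SINVm1_gene_13698 was at 0 to 6.59 TPM. The odorant-binding protein SINVm1_gene_02111 was at 0 to 10.3 TPM in the SB/SB libraries and 28.6 to 105 TPM in P_Bb. The study reports that XLOC_016888 is deleted in the Sb genome. It traces the SB/Sb signal of the odorant-binding protein to an Sb-specific duplicate. Differences of these 2 genes between genotypes are therefore not read as differences in cells.

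The 6 genes spanned a wide range of abundance, and their order changed with the class. Over the 12 libraries the mean was 112 TPM for the desaturase, 88.0 for the sulfatase, 67.8 for the UDP-glucuronosyltransferase, 50.2 for the acyltransferase, 13.9 for the trehalose-phosphate synthase and 5.05 for the P450. In M_BB the desaturase came first (225 ± 103 TPM, SD, n = 4), ahead of the UDP-glucuronosyltransferase (79.3 ± 15.2), the acyltransferase (64.5 ± 10.4) and the sulfatase (60.1 ± 13.6), and these last 3 neighbours lay within their spread of each other. In P_BB the sulfatase came first (109 ± 15.6 TPM, SD, n = 4), and the UDP-glucuronosyltransferase (61.1 ± 7.20), the desaturase (52.9 ± 25.8) and the acyltransferase (44.2 ± 10.5) followed within their spread. The same order held in P_Bb. The trehalose-phosphate synthase and then the P450 came last in M_BB and P_BB. In P_Bb these 2 neighbours lay within their spread of each other, at 12.0 ± 1.52 TPM for the synthase and 14.8 ± 6.30 TPM for the P450.

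**Figure D1:**
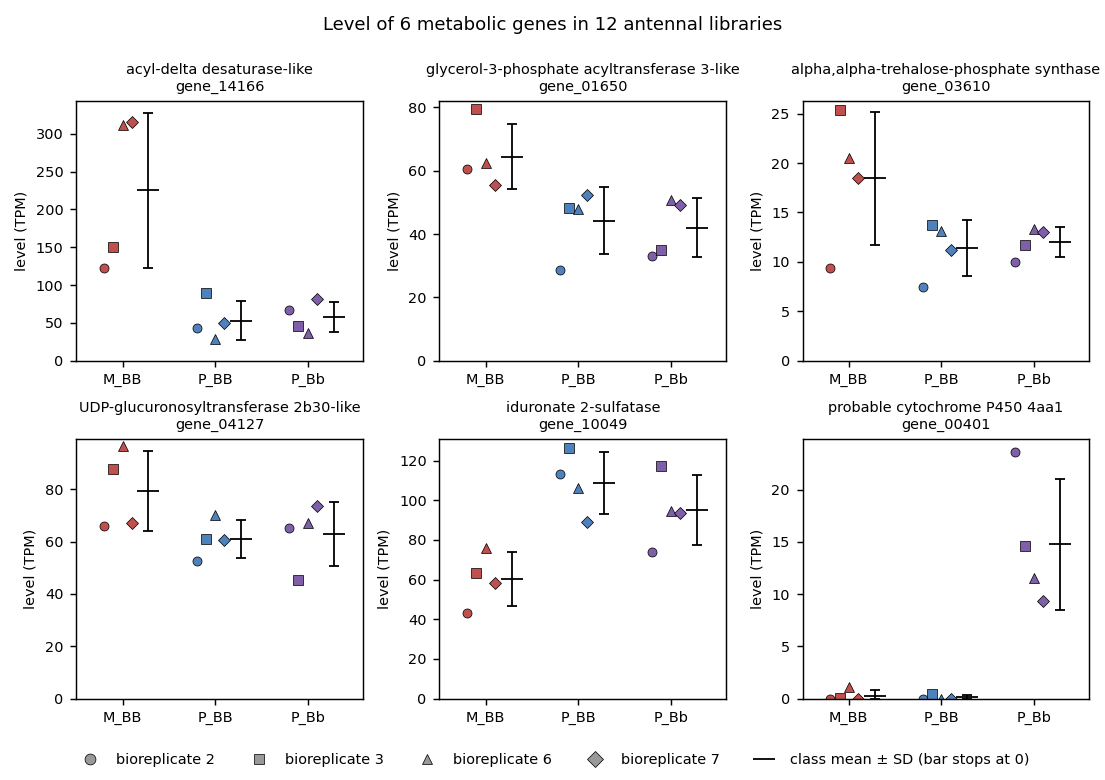
Level in TPM (y axis, linear, from 0) of the 6 genes in each of the 12 libraries, by worker class (x axis); marker shapes give the bioreplicate, and the black bars give the class mean ± SD (n = 4), drawn no lower than 0. The desaturase and the acyltransferase lie higher in all 4 M_BB libraries than in any polygyne library, the sulfatase lies lower in M_BB apart from a narrow overlap, and the P450 lies above 9 TPM in P_Bb and at 1.07 TPM or less elsewhere.

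The desaturase SINVm1_gene_14166 was the gene with the widest difference by social form. Its level in M_BB bioreplicates 2, 3, 6 and 7 was 122.84, 150.73, 312.01 and 315.55 TPM. In P_BB it was 42.91, 89.26, 29.21 and 50.31 TPM, and in P_Bb 66.40, 46.20, 36.48 and 81.81 TPM. All 4 M_BB libraries were above all 8 polygyne libraries, and among the M_BB libraries bioreplicates 6 and 7 were high and bioreplicates 2 and 3 low. The counts behind these levels were 222.71 to 801.8 in M_BB and 58.21 to 171.93 in the polygyne libraries. The mean of M_BB was 4.07-fold that of the polygyne libraries (55.3 ± 21.6 TPM, SD, n = 8 libraries of 4 colonies). The log2 fold change of edgeR was 2.09 (SE 0.32, 95% interval 1.41 to 2.76, with nestmate libraries taken as independent).

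Within bioreplicates the desaturase was always highest in M_BB, at 2.25, 2.23, 9.50 and 4.78 times the mean of the 2 polygyne libraries of its number (bioreplicates 2, 3, 6 and 7). This held in 4 of 4 bioreplicates, as it did for 1.51% of the 10503 genes tested. Between nestmates that differed in genotype the desaturase went both ways. The P_Bb library was above the P_BB library of its colony in 3 of 4 colonies, at 1.55, 1.25 and 1.63 times its level, and at 0.518 times in bioreplicate 3. The log2 difference between P_Bb and P_BB was 0.09 with a 95% interval from -0.74 to 0.92, which leaves room for a nestmate difference of that size. With the bioreplicate as a block, which pairs the nestmates, it was 0.08 (95% interval -0.80 to 0.96). Of the 6 genes, only the desaturase and the P450 were in the upper part of all genes for spread between libraries of a class (74.4 and 87.7 percentile of edgeR's biological coefficient of variation, 0.379 and 0.460). The other 4 were at or below the 17.1 percentile. The study's listing set class differences against this spread, so the choice could favour genes of low spread. The P450 value also rests on at most 3 counts in any SB/SB library. Nothing is read from these percentiles.

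The acyltransferase SINVm1_gene_01650, the glycerolipid enzyme, was also higher in M_BB, by a smaller margin. It was at 60.53, 79.42, 62.55 and 55.43 TPM in M_BB bioreplicates 2, 3, 6 and 7. The levels in the same order were 28.72, 48.10, 47.83 and 52.24 TPM in P_BB and 32.96, 34.87, 50.82 and 49.24 TPM in P_Bb. The groups did not overlap, but the gap was narrow: the lowest M_BB library and the highest polygyne library, both of bioreplicate 7, had RSEM intervals of 41.4 to 60.8 and 40.7 to 57.1 TPM (the tables do not state the level of these intervals), which overlap. M_BB exceeded its 2 polygyne libraries 1.96-fold and 1.91-fold in bioreplicates 2 and 3 and 1.27-fold and 1.09-fold in bioreplicates 6 and 7. The log2 fold change by social form was 0.66 (SE 0.17, 95% interval 0.30 to 1.02), with 104 to 258.13 counts per library in M_BB and 75 to 195 in the polygyne libraries.

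Counted over all tested genes, M_BB lay above the 8 polygyne libraries without overlap for 25 genes (0.238%), and 2 of the 6 genes, the desaturase and the acyltransferase, were among them. Both had been listed by the study on this contrast, so nothing is read from that count.

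The trehalose-phosphate synthase SINVm1_gene_03610, which makes the phosphorylated precursor of trehalose, was at 9.38, 25.36, 20.56 and 18.49 TPM in M_BB bioreplicates 2, 3, 6 and 7. In P_BB it was at 7.49, 13.70, 13.15 and 11.23 TPM, and in P_Bb at 9.95, 11.74, 13.30 and 12.98 TPM. In 3 of the 4 bioreplicates the M_BB library was above every polygyne library, while that of bioreplicate 2 lay below 7 of the 8. Bioreplicate 2 was the lowest of its class in all 3 classes, a pattern found in 10.5% of the tested genes. In that bioreplicate the M_BB level was 1.08 times the mean of the polygyne libraries and P_Bb was the highest of the 3, against 1.99, 1.55 and 1.53 times in bioreplicates 3, 6 and 7. The log2 fold change by social form was 0.69 (SE 0.21, 95% interval 0.24 to 1.13), on 26 to 113 counts per library.

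The UDP-glucuronosyltransferase SINVm1_gene_04127 differed least. It was at 65.84, 87.65, 96.58 and 67.24 TPM in M_BB bioreplicates 2, 3, 6 and 7, at 52.46, 61.07, 70.09 and 60.79 TPM in P_BB and at 65.27, 45.24, 67.32 and 73.70 TPM in P_Bb. The classes overlapped, and P_Bb bioreplicate 7 was above 2 of the M_BB libraries. M_BB was the highest library of its number in 3 of 4 bioreplicates, with ratios of 1.12, 1.65, 1.41 and 0.9999 to the mean of the polygyne libraries. The log2 fold change by social form was 0.42 (SE 0.14, 95% interval 0.12 to 0.71). The gene had 433.01 to 1760.89 counts per library, the most of the 6.

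Its gene model was also unusual in length. At 6900 bases it was matched or exceeded by 218 of 15589 official gene models, whose median was 828 bases. These are coding lengths, since 99.5% are multiples of 3. All 12 of its counts were fractional (more than 0.005 from a whole number), which RSEM gives where read pairs could belong to more than one gene. The desaturase had fractional counts in 8 libraries, the P450 in 5, the acyltransferase and the synthase in 1 each and the sulfatase in none. The levels of the UDP-glucuronosyltransferase, the desaturase and the P450 are uncertain to that extent, and the genes they share read pairs with were not identified here. Such counts were not rare, since 53.5% of the 16729 genes with any count had them in at least 1 library.

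**Figure D2:**
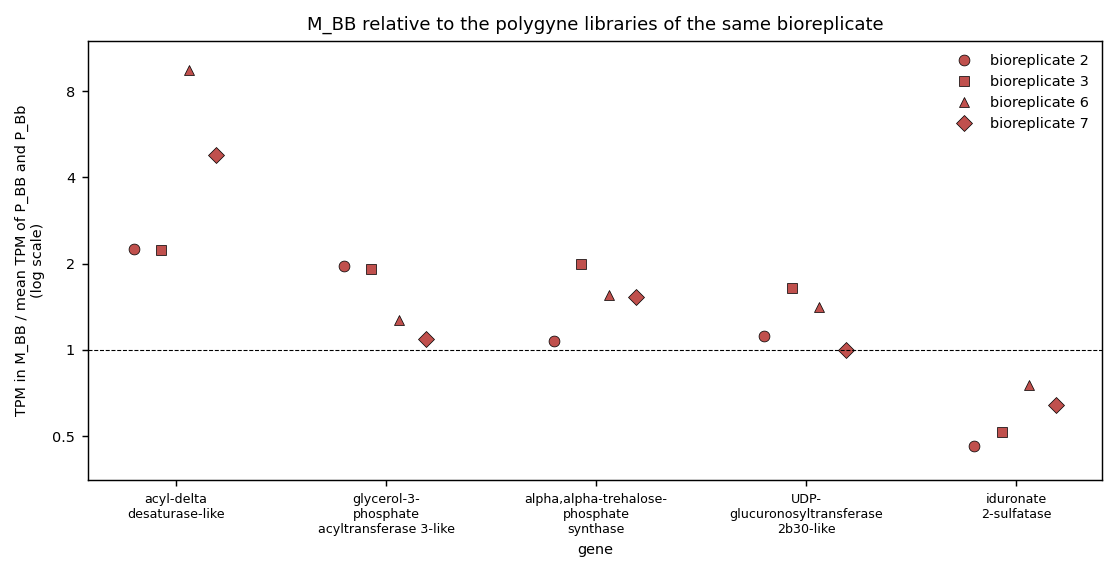
TPM in M_BB divided by the mean TPM of P_BB and P_Bb of the same bioreplicate (y axis, log scale; the dashed line marks equal levels) for the 5 genes listed by social form (x axis), with a marker shape for each bioreplicate. The desaturase ratios run from 2.23 to 9.50, the other higher genes come down to between 0.9999 and 1.09 in a bioreplicate each, and the 4 sulfatase ratios run from 0.460 to 0.756.

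The sulfatase SINVm1_gene_10049 went the other way. In mammals iduronate 2-sulfatase is a lysosomal enzyme that takes part in the breakdown of heparan and dermatan sulfate. It was at 43.01, 63.07, 75.98 and 58.49 TPM in M_BB bioreplicates 2, 3, 6 and 7, at 113.16, 126.54, 106.36 and 89.05 TPM in P_BB and at 73.99, 117.41, 94.75 and 93.76 TPM in P_Bb. The groups overlapped only where M_BB bioreplicate 6 (75.98 TPM) passed P_Bb bioreplicate 2 (73.99 TPM), which leaves the gene just outside the 0.447% of tested genes with M_BB below without overlap. M_BB was the lowest library of its number in 4 of 4 bioreplicates, as it was for 3.89% of the tested genes, at 0.460, 0.517, 0.756 and 0.640 times the mean of the polygyne libraries. The log2 fold change by social form was -0.75 (SE 0.21, 95% interval -1.20 to -0.30), on 37 to 127 counts per library.

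The sulfatase was the single gene of the 6 with more than 1 transcript in the tables. RSEM's length of the gene, a mean over its 2 transcripts weighted by abundance, was 732 bases in 8 libraries. It was 662.25 bases in M_BB bioreplicate 2, 681.62 in M_BB bioreplicate 3, 700.57 in P_BB bioreplicate 2 and 709.23 in P_BB bioreplicate 3. A share was thus given to the shorter transcript in the SB/SB libraries of bioreplicates 2 and 3, and in no P_Bb library, nor in any library of bioreplicates 6 and 7. With this few counts, how far the estimate would repeat was not tested.

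Between SB/SB and SB/Sb nestmates the 5 genes listed by social form showed no difference of a fixed sign. P_Bb was above P_BB in 3 colonies for the desaturase and the synthase, in 2 for the acyltransferase and the UDP-glucuronosyltransferase and in 1 for the sulfatase. The log2 differences were 0.09, -0.11, 0.05, 0.01 and -0.20 for the desaturase, the acyltransferase, the synthase, the UDP-glucuronosyltransferase and the sulfatase. Their 95% intervals all held 0, and the narrowest, that of the UDP-glucuronosyltransferase, ran from -0.34 to 0.35. These come from the model by worker class, without the pairing of nestmates. With the bioreplicate as a block the intervals of all 5 also held 0, and that of the UDP-glucuronosyltransferase ran from -0.33 to 0.32. P_BB and P_Bb each differed from M_BB with the same sign as the pooled comparison for all 5 genes. These comparisons share their M_BB libraries. P_Bb was below P_BB in every colony for 3.28% of the tested genes and for none of the 6. The study had listed all 5 with the polygyne classes alike and apart from M_BB. The small nestmate differences and the shared signs restate that listing, and nothing is read from them.

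**Figure D3:**
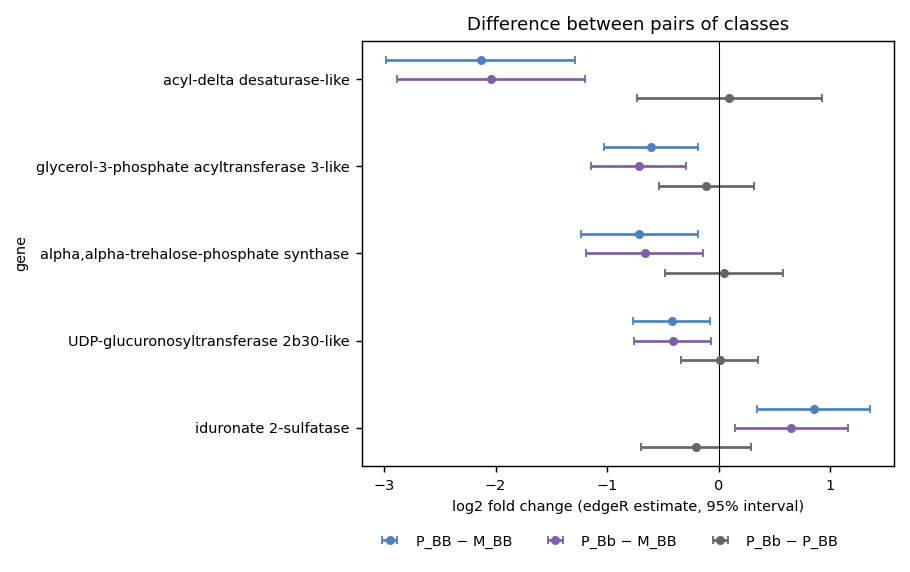
Log2 fold change with its 95% interval (x axis, edgeR estimate from 12 libraries, model by worker class without the pairing) between each pair of worker classes for the 5 genes listed by social form (y axis). The study listed all 5 with M_BB apart from both polygyne classes. Both polygyne classes lie on the same side of M_BB for every gene, and the intervals of P_Bb minus P_BB all include 0, from the widest for the desaturase (-0.74 to 0.92) to the narrowest for the UDP-glucuronosyltransferase (-0.34 to 0.35).

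The P450 SINVm1_gene_00401, listed by genotype, was high in P_Bb and at or near 0 in both SB/SB classes. P450 enzymes of family 4 oxidise fatty acids and other lipophilic molecules in insects. In P_Bb bioreplicates 2, 3, 6 and 7 it was at 23.64, 14.57, 11.51 and 9.33 TPM, from 52, 21.55, 29.82 and 17.19 counts. In M_BB it was at 0, 0.02, 1.07 and 0 TPM, the highest from 3 counts, and in P_BB at 0, 0.48, 0 and 0 TPM, the highest from 1.01 counts. The 4 P_Bb libraries were above all 8 SB/SB libraries, a pattern of 0.362% of the tested genes, and above their P_BB nestmates in 4 of 4 colonies, as 6.27% of the tested genes were. P_Bb was the highest library in all 4 bioreplicates, which held for 1.73% of the tested genes. The gene had enough counts to be tested only through its P_Bb libraries, and the study had listed it on this contrast. Nothing is therefore read from these counts.

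Since no SB/SB library of the P450 passed 3 counts, its fold is given as a bound. With 3 counts set in each SB/SB library, P_Bb was at least 9.02-fold higher than SB/SB, at least 8.67-fold higher than M_BB and at least 9.39-fold higher than P_BB on the CPM scale (counts scaled for library size). RSEM's upper bounds in the SB/SB libraries were 1.28 to 2.92 TPM and its lower bounds in P_Bb 5.02 to 16.7 TPM, so these did not meet. Whether the gene is silent or low in SB/SB antennae is not detectable at this depth. With a single P_Bb library per colony, the spread among them cannot be told apart from a spread among colonies.

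Across all 10503 genes tested, the quasi-likelihood test of edgeR (Benjamini-Hochberg adjusted p under 0.05) called 5 genes by social form (0.0476%), 2 of them higher in M_BB (0.019%) and 3 lower (0.0286%). It called 24 by genotype (0.229%), of which 23 were higher in P_Bb (0.219%). The desaturase was the 1 of the 6 genes called by social form and the P450 the 1 called by genotype. The other 4 had enough counts to be tested and were not called. All 6 genes had been listed on these contrasts, so the counts describe the list and are no support for it. The desaturase call did not hold up across all settings. It stood with the other scalings and count filters tried. With the bioreplicate as a block, 0 of the 6 genes and 0 of all genes were called by social form (1091 genes at an unadjusted p under 0.05), while its log2 fold change was 2.12 (95% interval 1.39 to 2.85). It was called in 3 of the 12 fits that left out a library, those without M_BB bioreplicate 3, P_BB bioreplicate 3 or P_Bb bioreplicate 7, and its log2 fold change was 1.85 to 2.29 over the 12. DESeq2 called it as well, and limma on log2(TPM + 1) did not. The P450 was called with the block and in all 12 of those fits. It had enough counts to be tested only through its P_Bb libraries, so nothing is read from these repeated calls.

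The study's comparison had no term for the bioreplicate, but it set class differences against the spread within classes. That spread holds the differences between bioreplicates. The choice could thus favour genes alike between bioreplicates, and nothing is read from a low count of the 6 here. In the model of class and bioreplicate, 0 of the 6 genes were called, with adjusted p from 0.535 for the synthase to 0.946 for the acyltransferase (edgeR, F test of the bioreplicate term), and 0 had an unadjusted p under 0.05. Over all genes 1 was called (0.00952%) and 15.4% had an unadjusted p under 0.05. Among the 8 polygyne libraries, where colony was tested beside genotype, 184 of 10057 genes were called (1.83%) and again 0 of the 6. The desaturase came nearest there, with an unadjusted p of 0.0197 and 0.138 after adjustment (edgeR). A p above the threshold does not show that colonies were alike, and the desaturase alone ranged from 29.21 to 89.26 TPM among the polygyne libraries.

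The study's list of changed genes also holds fatty acid synthase, fatty acyl reductase and prophenoloxidase, and their levels are given here as a description. Neither the reductase nor prophenoloxidase was called by social form, and fatty acid synthase was not tested. Fatty acid synthase (SINVm1_gene_00676), which builds the chains that desaturases act on, was at 10.21, 24.77, 97.64 and 27.68 TPM in M_BB bioreplicates 2, 3, 6 and 7. In the polygyne libraries it was at 0 to 16.6 TPM and at 0 in 3 of them, on at most 7.27 counts, and it did not pass the count filter. Its gene model was 465 bases long, and whether that model covers the whole enzyme was not tested. Fatty acyl reductase (SINVm1_gene_01163), which turns fatty acyl chains into alcohols, was at 20.6 to 49.7 TPM in M_BB and 8.92 to 24.4 TPM in the polygyne libraries. Prophenoloxidase subunit 2 (SINVm1_gene_02300), an enzyme of melanin formation made by blood cells, was at 4.56 to 21.2 TPM in M_BB and 1.19 to 4.83 TPM in the polygyne libraries. All 3 were highest in M_BB in 4 of 4 bioreplicates. The study had listed these genes by their class differences, so that count is no support for a shared direction.

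Esterase FE4-like (SINVm1_gene_00238) was the counterpart of the sulfatase among these genes. Esterases cleave ester bonds, those of odorants included. It was at 33.81, 127.00, 111.88 and 88.32 TPM in M_BB bioreplicates 2, 3, 6 and 7 and at 137 to 161 TPM in all 8 polygyne libraries. M_BB lay below without overlap, as for 0.447% of the tested genes. It was lowest in 4 of 4 bioreplicates, as for 3.89% of them. The study had listed the esterase on this contrast, so nothing is read from these counts, and edgeR did not call it by social form. Bioreplicate 2 of M_BB was the lowest library for both the esterase and the sulfatase.

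A set of 4 genes was taken as markers of fat body, oenocytes or blood cells, namely fatty acid synthase, fatty acyl reductase, prophenoloxidase and croquemort-like (SINVm1_gene_06423), a scavenger receptor of blood cells. Their summed level was 101 to 239 TPM in M_BB, 44.9 to 83.1 TPM in P_BB and 43.4 to 86.0 TPM in P_Bb, so M_BB did not overlap with the polygyne classes. All 4 had a higher mean in M_BB, and fatty acid synthase was the 1 of the 4 at 0 in any library. Croquemort-like was at 66.0 to 76.8 TPM in M_BB and 28.8 to 51.3 TPM in the polygyne libraries. Over the 12 libraries, the log2 levels of the desaturase had a Pearson r of 0.87 with fatty acyl reductase, 0.85 with prophenoloxidase and 0.83 with croquemort-like. With the same 3 markers in that order, r was 0.69, 0.73 and 0.83 for the acyltransferase, 0.65, 0.81 and 0.69 for the trehalose-phosphate synthase, and 0.68, 0.74 and 0.74 for the UDP-glucuronosyltransferase. It was -0.40, -0.54 and -0.80 for the sulfatase and -0.57, -0.32 and -0.38 for the P450. The points share classes and colonies, so these are descriptions. All 4 markers are on the study's list of changed genes, each as higher in M_BB. Their higher means and sum in M_BB restate that listing, and nothing is read from them. Their part in the social form differences of the 5 genes was not tested.

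**Figure D4:**
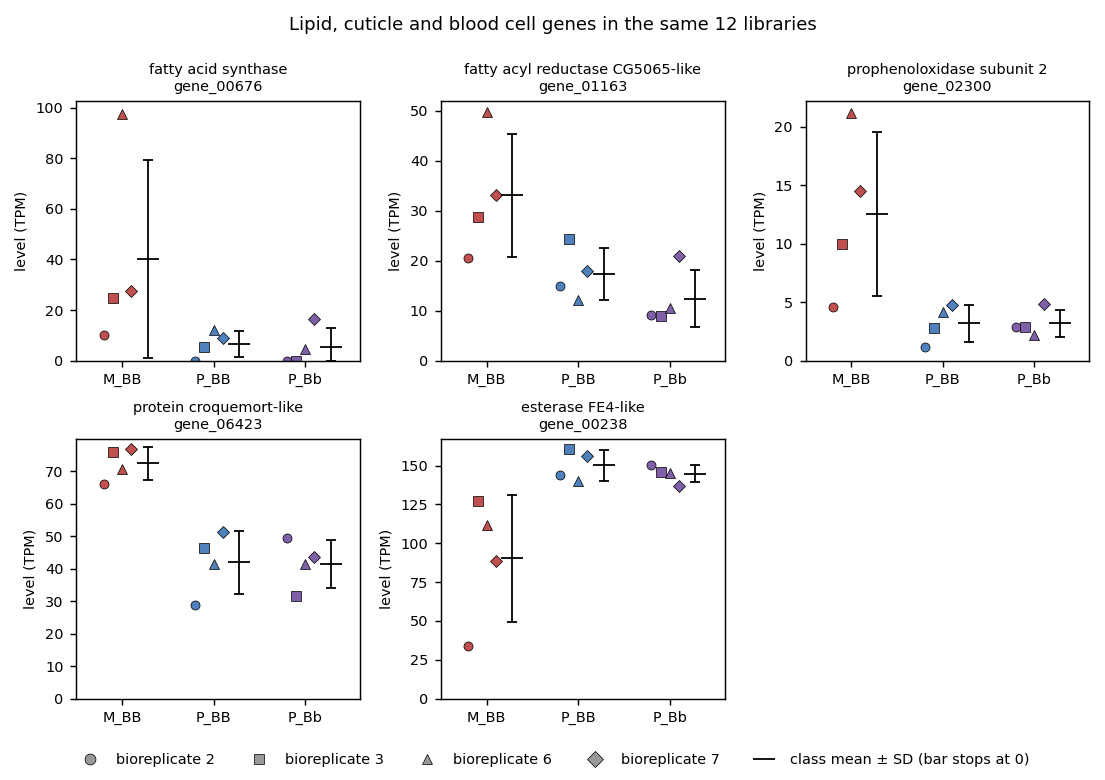
Level in TPM (y axis, linear, from 0) of fatty acid synthase, fatty acyl reductase, prophenoloxidase, croquemort-like and esterase FE4-like in the 12 libraries by worker class (x axis), drawn as for the 6 genes, with black bars for the class mean ± SD (n = 4). The first 4 have their highest class mean in M_BB, with M_BB bioreplicate 6 at 97.64 TPM for fatty acid synthase, and the esterase is lower in all 4 M_BB libraries. The study listed all of these genes on this contrast.

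Among the 8 other genes that the study places in chemical metabolism or odorant perception, 7 passed the count filter. Of these, 3 were called by genotype with a higher level in P_Bb (2 with the bioreplicate as a block), against 0.219% of all tested genes, and 0 by social form (edgeR; 911 of all genes had an unadjusted p under 0.05 by social form, and DESeq2 called 26 of all genes). The study had listed those 3 on the genotype contrast itself, so nothing is read from their count. The median log2 fold change by social form was -0.17 over the 7, 0.54 over the 6 genes and 0.02 over all tested genes. It was above 0 for 4 of the 6 genes and for 52.2% of all tested genes. Of the 6, all but the P450 had been listed on this contrast, and the 7 hold genes listed on either contrast. The medians and this count restate that listing, and nothing is read from them. The bioreplicate and the colony term each called 0 of the 7 in edgeR, and 0 had an unadjusted p under 0.05 for the bioreplicate.

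The library names carry 2 prefixes, LGC16 for M_BB bioreplicates 2 and 7 and both polygyne libraries of bioreplicate 7, and LGC for the other 8. What the prefix stands for is not given in the sources used here. The mean desaturase level in M_BB was 4.47 times that of the polygyne libraries among LGC libraries and 3.32 times among LGC16 libraries. For the sulfatase the ratios were 0.660 and 0.555. The differences of the other 3 were present among LGC libraries, at 1.75 for the acyltransferase, 1.99 for the synthase and 1.53 for the UDP-glucuronosyltransferase, and small among LGC16 libraries, at 1.14, 1.15 and 0.990. The LGC16 means of the UDP-glucuronosyltransferase were nearly equal, at 66.5 TPM in M_BB and 67.2 TPM in the polygyne libraries. The LGC16 ratios rest on 2 libraries against 2, and the 2 polygyne libraries share a colony. With the prefix as a covariate in edgeR, 0 genes were called by social form (545 at an unadjusted p under 0.05). The desaturase was thus no longer called, while its log2 fold change was 2.03, against 2.09 without the prefix. The P450 was above its SB/SB libraries within both prefixes.

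The genes whose levels followed each of the 6 most closely were found by the Pearson r of log2(TPM + 1) over the 12 libraries, among 10502 other genes. For the desaturase it was SINVm1_gene_02859 (r = 0.90), at 35.6 to 88.1 TPM in M_BB and 15.5 to 30.9 TPM in the polygyne libraries. For the acyltransferase it was SINVm1_gene_11600 (r = 0.98), on as few as 13 counts in a library. The closest to the synthase was SINVm1_gene_12156 (r = 0.95), to the UDP-glucuronosyltransferase SINVm1_gene_06552 (r = 0.92) and to the sulfatase SINVm1_gene_00695 (r = 0.95). For the P450 it was SINVm1_gene_00322 (r = 0.96), at 18.3 to 21.5 TPM in P_Bb and 0 to 3.74 TPM in SB/SB. SINVm1_gene_00322 is itself on the study's list of genes changed by genotype, so its likeness to the P450 is not independent of that list. The other 5 closest genes are given by identifier only. Between 2 and 15 genes reached an r of 0.9 with each of the 6. By Spearman's rank correlation, 1 of the 6 kept the same closest gene.

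Among the 6 genes themselves, the acyltransferase, the synthase and the UDP-glucuronosyltransferase moved together most closely, with r from 0.72 to 0.77 over the 12 libraries. The desaturase had r of 0.58 to 0.63 with these 3 and -0.63 with the sulfatase. The P450 had r between -0.43 and 0.25 with the other 5. These genes were chosen on the class pattern that the libraries share, and the values are descriptions.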

How the data were processed

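Antennal RNA of 12 pools was amplified and sequenced as read pairs. After trimming, the authors aligned the read pairs to transcript sequences with Bowtie2 (15589 official genes and a set of assembled ones) and ran RSEM on each library, depositing expected counts and TPM, used here as they stand. Removal of duplicate reads is not stated. The RSEM interval of TPM is given as deposited. The deposited annotation of assembled transcripts holds none of the 6 genes, and the study's linkage group assignments were not used here.

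Expected counts were rounded and fitted with edgeR (4.0.16, R 4.3.3) using its robust quasi-likelihood test after TMM scaling and filterByExpr (10503 genes), with a term for the worker class, as the study's own comparison has no term for the bioreplicate. Genes with an adjusted p under 0.05 are said to be called. Alternatives were other scalings and filters, DESeq2 (1.42.0; adjusted p missing for 8 genes by social form), limma (3.58.1) on log2(TPM + 1), the prefix, the block and each library left out. The models were tested on simulated data. By the labels, nestmate libraries carry the same number, and the study's methods match the M_BB colony of that number by day, so numbers pair libraries. Deviations from the class mean correlated across genes with a median of 0.40 between libraries of a colony and -0.09 between different numbers. Over all 12 pairs of the same number and different class, nestmates included, the median was 0.23 and the lowest -0.36. Libraries of a class were not copies (chi-square per degree of freedom 6.35 or more). Named genes were the 6 genes, the study's other chemical and perception genes with values for 4 of lipid and cuticle metabolism, the cell type markers and the closest gene of each of the 6. The genes and lists were chosen with earlier results of these data known. Tables and figures were made in Python 3.11.15 (pandas 2.3.3, matplotlib 3.10.9).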

Additional observations from a re-analysis of the deposited data

Results flagged for a closer look

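In 2 of the 18 sets of 4 libraries examined (6 genes in 3 classes), a library stood apart from the other 3 of its class by more than Dixon's critical value for the gap over the range. Both sets concern the P450 SINVm1_gene_00401 in SB/SB workers. The chance rate of about 1 set in 20 holds for continuous values and not for a gene at or near 0 in most libraries. There a single library with a count is enough for a flag. M_BB bioreplicate 6 was at 1.07 TPM (3 counts) against 0 to 0.02 TPM, and P_BB bioreplicate 3 was at 0.48 TPM (1.01 counts) against 0. Both rest on at most 3 counts, the floor used for the fold of this gene.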

How the results depend on the processing

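Against 5, 24 and 1 genes called by social form, genotype and bioreplicate, DESeq2 called 26, 37 and 416. Requiring 10 counts in every library gave 4 by genotype, a filter that by its construction removes genes near 0 in a class, and no filter gave 46 by bioreplicate. By social form, limma called 3, the prefix as covariate 0 and the replicate block 0 (545 and 1091 at an unadjusted p under 0.05). The replicate block left 22 by genotype and changed no call of the 6 genes but the desaturase's. By bioreplicate, the prefix as covariate gave 194 and the colony term in the 8 polygyne libraries 184. Leaving out each library gave 0 to 6 by social form, 18 to 26 by genotype and 0 to 388 by bioreplicate. The cause of these moves was not tested except for the filter. No log2 fold change of the 6 genes changed sign in 119 refits, and 116 moved by less than the spread between libraries of a class. The 3 others were of the P450: 3.69 with limma, where the pseudocount holds it down, and 7.07 without M_BB bioreplicate 6 and 6.52 without P_BB bioreplicate 3, the SB/SB libraries that held its few counts. No adjusted p of the bioreplicate term fell below 0.138 for the 6 genes. The TPM ratio of the UDP-glucuronosyltransferase SINVm1_gene_04127 was 0.990 among LGC16 libraries, which is near equal levels. With a pseudocount of 0.1, 5 of the 6 closest genes stayed the same, and by Spearman's rho 1. Genes at a few counts, the P450 in SB/SB workers and fatty acid synthase, are limited by depth.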
